A study of Mus musculus with 9 samples.

Results

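The organic anion transporting polypeptides (Slco genes), the organic ion transporters of the Slc22a family and the ATP-binding cassette pumps of the Abca, Abcb, Abcc and Abcg families move drugs, bile constituents, hormones, urate and lipids across cell membranes. They were picked by gene name, with the probe of highest mean signal standing for each gene, and made up 82 of the 37074 gene names measured. The set held 15 Slco and 26 Slc22a genes, counted here as 41 uptake genes, and 41 Abc genes, counted as export. The name rule left out 1 further Abcb gene. Livers came from male C57BL/6N mice injected into the tail vein with a hepatocyte-directed adeno-associated virus (AAV), so that every animal, controls included, carried the vector. AAV-V mice received the empty vector and a regular diet, AAV-GP73 mice the vector expressing the Golgi protein GP73 and a regular diet, and AAV-V HFD mice the empty vector and a high-fat diet (HFD), with 3 arrays in each group and 12 months as the labelled age. The study's text counts that time from the AAV injection for AAV-V and AAV-GP73, and as time on the diet for AAV-V HFD, and not from birth. The time since injection may therefore differ between the groups. The labels do not say whether an array holds a single mouse or a pool. The length of the diet differs between the results and the methods of the study. The study compared these livers to set GP73-induced fatty liver against fatty liver of dietary obesity.

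In hepatocytes, Slco and Slc22a carriers at the sinusoidal membrane, which faces the blood, take up bile acids, bilirubin conjugates, organic cations and drugs. Abc pumps at the canalicular membrane then drive phospholipid, sterols, conjugates and drugs into bile by splitting ATP, and other Abc pumps send them back to blood or work inside mitochondria and lysosomes. The transcript levels of many of them answer to nuclear receptors and to the hepatocyte factor HNF4.

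Levels are given as scaled log2 signal, the log2 of the background-corrected spot signal after each array was shifted so that its bright probes matched, and differences as log2 fold changes between group means. On this scale each array had a lowest signal of its own at which any spot was well above background, called its limit here. The AAV-V arrays were dimmer, with 10.2% to 10.7% of spots well above background against 16.0% to 18.4% in AAV-GP73 and 13.8% to 16.7% in AAV-V HFD. The lowest scaled log2 signal well above background therefore lay at 3.77 to 3.94 on AAV-V arrays and at 1.85 to 2.81 on the other 6. The 10 hepatocyte markers were well above background on all AAV-V and all AAV-GP73 arrays, and 9 of the 10 on all AAV-V HFD arrays. Tat was called higher in AAV-GP73 (4.76-fold) and Cps1 lower in AAV-GP73 (3.01-fold) and AAV-V HFD (4.09-fold), and the others gave no call. In bulk liver, fewer cells of a type and less RNA per cell cannot be told apart.

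Most of the transporters were too dim to measure. Of the 82 genes, 22 (26.8%) were well above background on at least 1 array, next to 25.8% of all gene names, and 60 on none. Between 5 and 7 transporters were detected on each AAV-V array, 10 to 14 on each AAV-GP73 array, and 16, 16 and 6 on the AAV-V HFD arrays. AAV-V HFD replicate 3, the dimmest of its group, was the array with 6. The median scaled log2 signal of the 60 undetected genes was 1.76 to 1.88 on AAV-V arrays, -0.06 to 0.47 on AAV-GP73 arrays and 0.08 to 0.83 on AAV-V HFD arrays, so a dim probe reads higher on AAV-V arrays than on the others. Testing was limited to genes that every array of some group detected, which left 10 transporters, 7 for uptake and 3 for export, of 5763 genes in all.

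**Figure D1:**
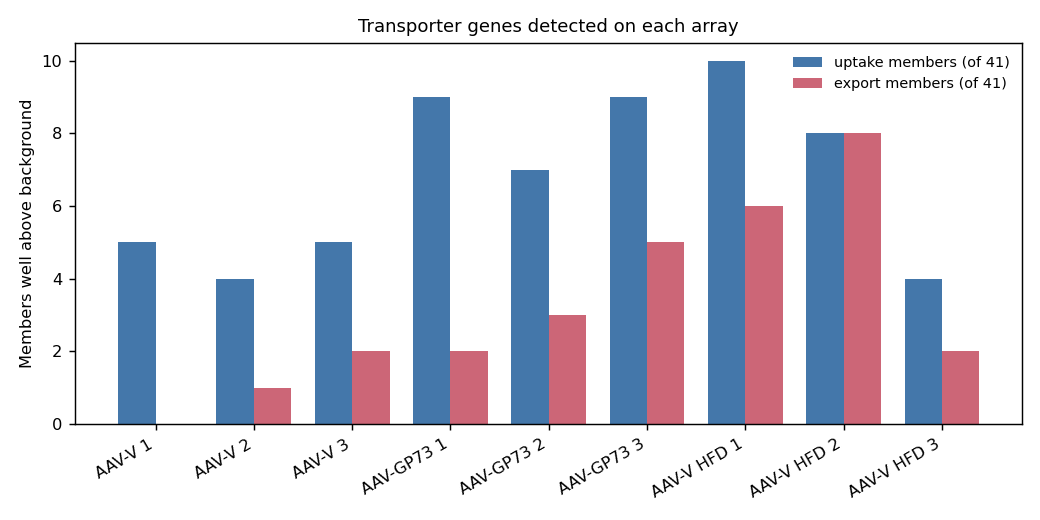
Number of transporter genes well above background on each of the 9 arrays, with uptake genes (Slco and Slc22a) and export genes (Abc) as separate bars of 41 genes each. AAV-V arrays showed 0 to 2 export genes, and AAV-V HFD replicate 3 showed 2 where the other arrays of its group showed 6 and 8.

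Each value below rests on a single probe of 60 bases, and the first 30 bases of those behind the called genes are shown with the 2 probes of Slco2a1 that gave signal, in the direction of the transcript and with no letters marked.
Slco1b2, chr6:141634476-141634535: tcaaaatttgcatggtgctattctctcctg
Slc22a6, chr19:8700868-8700927: gctctaactgtgtgcagcttcttaagcaga
Slc22a28, chr19:8137911-8137970: atgggagtcattggaatgtttggtaatagt
Abcb4, chr5:8959108-8959167: agctgctggcgcagaagggcatctatttct
Abcg2, chr6:58642312-58642371: cctggcttgtatgattattatcttcctcac
Abcg5, chr17:85057604-85057663: cagcttgtggggcaatgtggtgcttggaca
Slco2a1, ENSMUST00000190892, chr9:102913679-102913921: ttgttttgttttgtttaaagagagagagaa
Slco2a1, NM_033314, chr9:102990100-102990159: gttcccggaagatcagctgtccccacaagt
Coordinates are those of the scanner output on mm9 for the whole probe, with Slc22a28 and Abcg5 on the minus strand and the others on the plus strand. The brightest Slco2a1 probe covers 243 bases of genome with its 60 bases. Whether a probe lies in coding sequence or a UTR was not determined, as no mm9 annotation was used here. The longest run of bases that any of these 8 probes shared with a probe of another gene name was 16, for the brightest Slco2a1 probe.

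Slco1b2 encodes the liver's sinusoidal carrier for bile acids, bilirubin conjugates and statins, and it was the uptake gene that rose in both comparisons. Its scaled log2 signal was 4.98, 4.03 and 4.91 on the AAV-V arrays, 6.13, 6.51 and 6.18 on the AAV-GP73 arrays, and 6.80, 7.41 and 5.18 on the AAV-V HFD arrays. Every AAV-GP73 and AAV-V HFD value lay above every AAV-V value, with AAV-V HFD replicate 3 the closest to them. It was well above background on 2 of 3 AAV-V arrays and on all 6 others. The log2 fold change was 1.63 in AAV-GP73 (SE 0.49, 3.10-fold, adjusted p = 0.0131) and 1.82 in AAV-V HFD (SE 0.49, 3.54-fold, adjusted p = 0.00928). Without AAV-V replicate 2 the rise in AAV-GP73 was 1.33 and was no longer called. Background was also corrected by normexp, which models signal and background over each array, with an offset of 50 then added to every corrected signal. The values under normexp were 0.11 and 0.34 and neither was called. When the gene's probes were averaged the value in AAV-GP73 was -0.0341, and the call in AAV-V HFD was lost too. By the methods' t-test the AAV-V HFD rise was not called. A second Slco1b2 probe, for ENSMUST00000162675, was well above background on no array.

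Slc22a6 encodes OAT1, an exchanger of organic anions for dicarboxylates best known from the kidney proximal tubule, and it fell in both comparisons. Its scaled log2 signal was 6.01, 6.64 and 6.89 in AAV-V, 4.53, 4.07 and 4.10 in AAV-GP73, and 4.72, 4.54 and 5.20 in AAV-V HFD, well above background on all 9 arrays. All AAV-V values lay above all others. The mean was 6.51 ± 0.45 (SD, n = 3) in AAV-V against 4.23 ± 0.26 in AAV-GP73 livers and 4.82 ± 0.34 in AAV-V HFD livers. The log2 fold change was -2.28 in AAV-GP73 (SE 0.31, 4.86-fold, adjusted p = 0.000168) and -1.69 in AAV-V HFD (SE 0.31, 3.24-fold, adjusted p = 0.00137). The gene has 1 probe on the array.

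Slc22a28, a mouse gene of the organic anion branch of the family, moved the same way. It read 5.21, 5.59 and 5.38 in AAV-V, 3.81, 3.60 and 3.07 in AAV-GP73, and 3.65, 3.40 and 3.03 in AAV-V HFD, where replicate 3 was not well above background. The AAV-V values stood above all 6 others with no overlap. The log2 fold change was -1.90 in AAV-GP73 (SE 0.29, 3.73-fold, adjusted p = 0.000277) and -2.03 in AAV-V HFD (SE 0.29, 4.09-fold, adjusted p = 0.000452). Its other probe, at chr19:8136749-8136808 for the same transcript, did not show this. That probe averaged 1.76, 2.26 and 0.79 in AAV-V, AAV-GP73 and AAV-V HFD and was well above background on 1 AAV-GP73 array, and it shares a run of 23 bases with a probe of Slc22a30. With both probes averaged the log2 fold change in AAV-GP73 was -0.70 and was not called.

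The size of both falls followed the scaling. Set to the spike-in control spots, which hold a fixed amount of added RNA, the log2 fold changes of Slc22a6 were -0.60 and -0.36 and those of Slc22a28 -0.21 and -0.70 in AAV-GP73 and AAV-V HFD, and none was called. Set to the 75th percentile of all probes, Slc22a28 was at -0.91 in AAV-GP73 and Slc22a6 at -0.74 in AAV-V HFD, and these were not called either. Under each of these scalings the sign stayed negative.

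The remaining tested uptake genes gave no call in either comparison. Slc22a12 encodes the urate carrier URAT1 of the kidney, and its level of 6.65, 4.67 and 4.93 in AAV-V overlapped the 4.40, 5.53 and 4.86 of AAV-GP73 and the 4.58, 5.48 and 5.51 of AAV-V HFD. AAV-V replicate 1 stood apart as the highest. The log2 fold changes were -0.49 (95% interval -1.58 to 0.61) and -0.23 (-1.33 to 0.87). Slco2a1 encodes the prostaglandin transporter, and its brightest probe lay between 6.05 and 7.14 on all 9 arrays with overlapping groups. Its log2 fold changes were 0.28 (-0.39 to 0.96) and 0.25 (-0.42 to 0.92), which turned to -0.07 and -0.12 under normexp, to -0.11 in AAV-V HFD in the authors' table, and to -1.01, called lower, and -0.93 when all probes of the gene were averaged. It was called higher in both comparisons with the 75th percentile of all probes (1.28 and 1.20) and with the spike-in spots (1.97 and 1.58). The Slco2a1 probe for the RefSeq transcript NM_033314 was well above background on 1 AAV-GP73 array only. Those for ENSMUST00000035148 and ENSMUST00000188664 were detected on no array. They averaged 1.63 and 1.78 in AAV-V, -0.07 and 0.15 in AAV-GP73, and 0.15 and 0.63 in AAV-V HFD. Undetected probes read higher on AAV-V arrays, so the averaged values show no measured fall of Slco2a1.

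Slc22a18, an imprinted family member, and Slco2b1, a sinusoidal carrier of sulfated steroids and drugs, were detected on none of the 3 AAV-V arrays. Slc22a18 read 3.15 to 3.86 in AAV-V, 3.14 to 3.53 in AAV-GP73 and 2.76 to 3.43 in AAV-V HFD, and Slco2b1 read 2.31 to 3.19, 2.52 to 3.17 and 1.48 to 3.58. The groups overlapped for both genes. The log2 fold changes of Slc22a18 were -0.27 (95% interval -0.91 to 0.38) and -0.47 (-1.12 to 0.17), and those of Slco2b1 0.30 (-0.72 to 1.33) and -0.18 (-1.21 to 0.85). These signs and calls depended on the scaling. Slco2b1 was called higher in AAV-GP73 with the 75th percentile of all probes (1.30) and the spike-in spots (1.99), and lower in AAV-V HFD with all its probes averaged (-1.07). Slc22a18 was called higher in AAV-GP73 with the spike-in spots (1.42), and its sign was also positive in AAV-V HFD there.

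**Figure D2:**
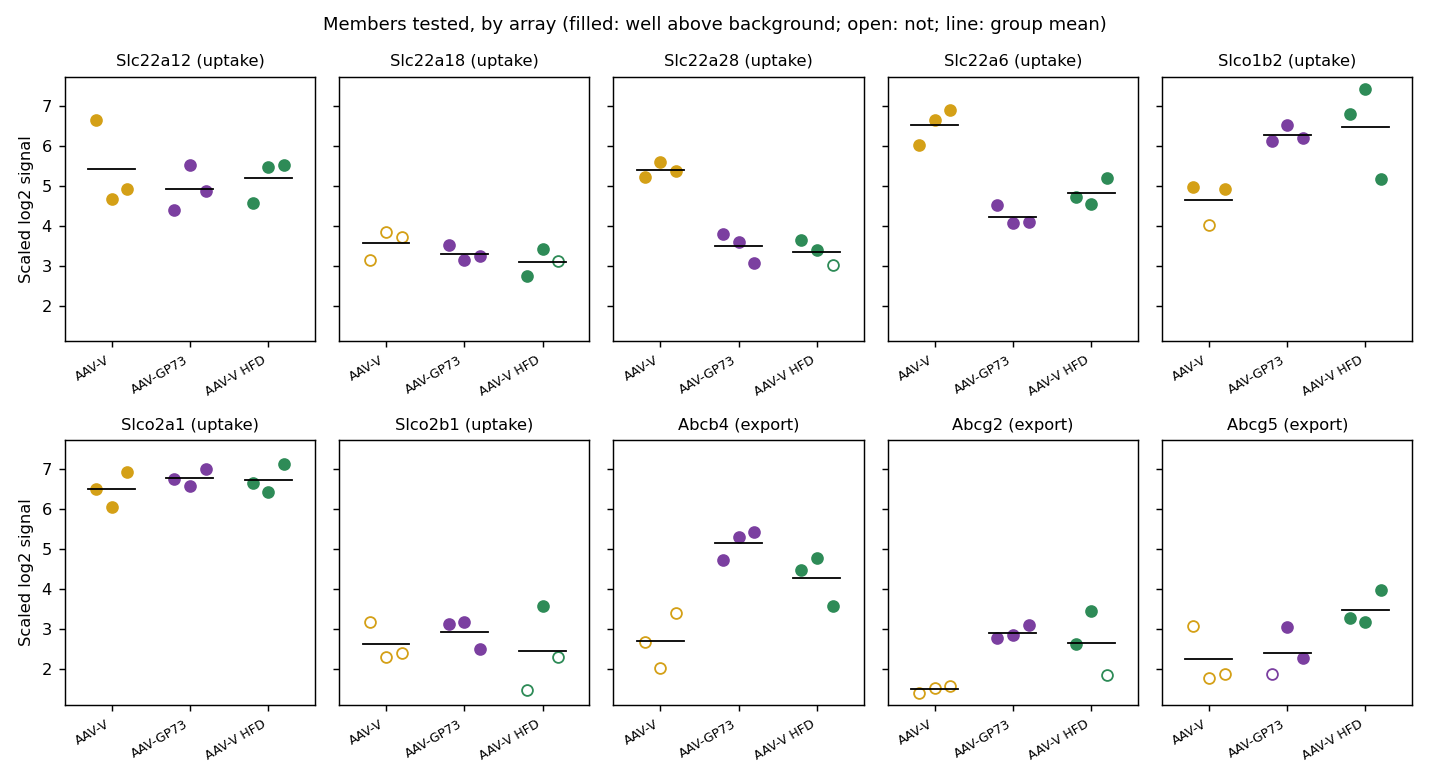
Scaled log2 signal of the 10 tested transporter genes on each of the 9 arrays, by group, with the group mean as a line, filled points well above background and open points not. Slc22a6 and Slc22a28 were highest in AAV-V with no overlap, Slco1b2 was lowest in AAV-V, and all AAV-V points of Abcb4, Abcg2 and Abcg5 are open.

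Among the export genes, Abcb4 gave the clearest difference. It encodes the floppase that moves phosphatidylcholine into bile. It read 2.69, 2.04 and 3.42 in AAV-V, where no array was well above background, 4.72, 5.31 and 5.43 in AAV-GP73, and 4.49, 4.79 and 3.59 in AAV-V HFD. All 6 values of AAV-GP73 and AAV-V HFD were detected and exceeded the undetected AAV-V readings, the nearest being 3.59 on AAV-V HFD replicate 3. That value lies below the AAV-V limits of 3.77 to 3.94, so this array has no order against AAV-V. Since the AAV-V side is only a limit, the AAV-GP73 mean of Abcb4 was at least 2.45-fold higher and its AAV-V HFD mean at least 1.35-fold higher. The second bound is one of the group mean and does not hold for AAV-V HFD replicate 3. The adjusted p of 0.000443 and 0.00782 belong to the fitted differences, which use undetected AAV-V readings, and do not test these bounds. These bounds set each AAV-V array to its lowest signal well above background, or to the probe's own value if higher. They are approximate, since an undetected probe can read above that signal, as the receptor gene Ppara did on AAV-V replicate 2 (4.10 against 3.87). The fitted mean was 2.71 in AAV-V livers, with 5.15 and 4.29 in the AAV-GP73 and AAV-V HFD livers. Under normexp the log2 fold changes were -0.13 and -0.51 and not called, which does not decide the direction, given the size of the offset. Averaging its probes ended both calls, and the methods' t-test, once adjusted, did not call it in AAV-V HFD. Of the other 2 Abcb4 probes, the one for ENSMUST00000197458 averaged 2.50, 2.58 and 2.13 in the 3 groups and was detected on 2 AAV-GP73 arrays, and the last was detected on none.

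Abcg2 encodes the breast cancer resistance protein, a canalicular pump for urate, drugs and sulfate conjugates. It read 1.42, 1.54 and 1.60 on the AAV-V arrays, 2.79, 2.85 and 3.10 in AAV-GP73, and 2.64, 3.46 and 1.87 in AAV-V HFD, detected on 0, 3 and 2 arrays. The AAV-V values lay below all others and at the level of undetected genes. The fitted log2 fold change was 1.40 in AAV-GP73 (SE 0.36, adjusted p = 0.00561) and 1.14 in AAV-V HFD (SE 0.36, adjusted p = 0.0196), which met the thresholds of a call. All of these levels lie below what an AAV-V array could measure, so the call rests on unmeasured AAV-V values, and neither a rise nor a bound on the fold can be read from it. Under normexp the signs turned, to -0.61 and -0.77, without a call. Without AAV-V HFD replicate 2 the value in AAV-V HFD was 0.74 and was not called, nor was it by the methods' t-test.

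Abcg5 and Abcg8 together form the pump that secretes cholesterol and plant sterols into bile. Abcg5 read 3.07, 1.78 and 1.89 in AAV-V, 1.88, 3.05 and 2.29 in AAV-GP73, and 3.28, 3.17 and 3.98 in AAV-V HFD, detected on 0, 2 and 3 arrays. The AAV-GP73 readings overlapped those of AAV-V, and the AAV-V HFD readings lay above both. The log2 fold change was 0.16 in AAV-GP73 (95% interval -0.75 to 1.07, adjusted p = 0.748) and 1.23 in AAV-V HFD (SE 0.42, adjusted p = 0.0269). The AAV-V HFD mean of 3.48 is again below the AAV-V limit, so this call too rests on unmeasured AAV-V values and shows no rise. The call in AAV-V HFD was lost by the methods' t-test and when either AAV-V replicate 2 (1.00), replicate 3 of that group (1.05) or AAV-V HFD replicate 3 (0.98) was left out, and the value turned to -0.74 under normexp. Scaled to all probes or to the spike-in spots, Abcg5 was called in AAV-GP73 too, at 1.15 and 1.84, and under normexp it was at -0.72. Abcg8 was not tested. It read 3.61, 2.35 and 4.09 in AAV-V, 1.46, 2.40 and 2.33 in AAV-GP73, and 2.81, 2.65 and 2.68 in AAV-V HFD, detected on 1, 1 and 2 arrays, so most of these readings have no order.

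**Figure D3:**
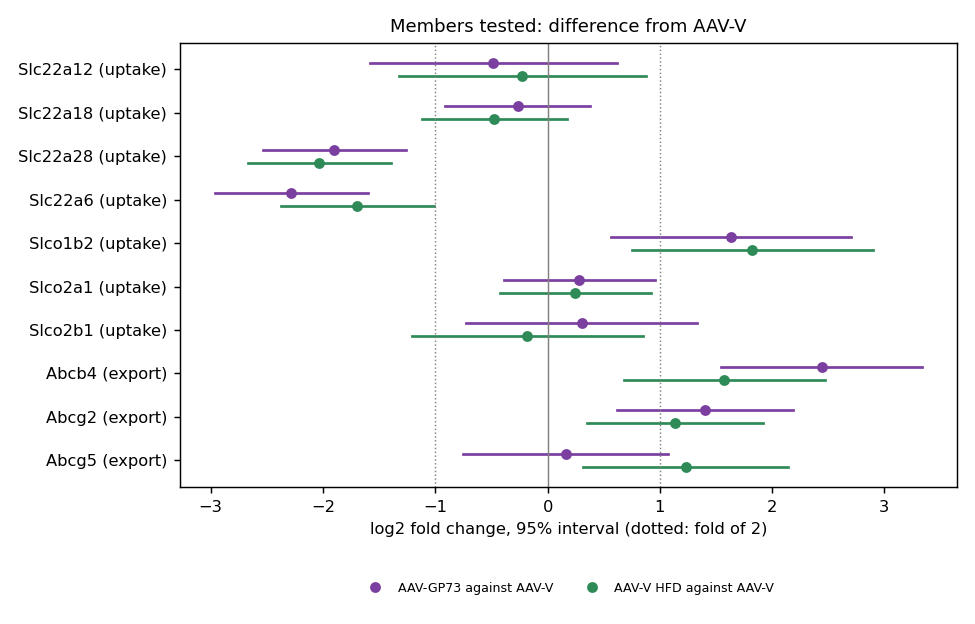
Log2 fold change of the 10 tested transporter genes (purple for AAV-GP73, green for AAV-V HFD), each against the same 3 AAV-V arrays, with 95% intervals and dotted lines at a fold of 2. Slc22a6 and Slc22a28 lie below -1 and Slco1b2 and Abcb4 above 1 in both comparisons, and the Abcg5 values are 0.16 and 1.23.

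In AAV-GP73 against AAV-V, 5 of the 10 tested transporters were called (fold of at least 2 and adjusted p under 0.05), beside 52.6% of all 5763 genes tested. Of these 5, Abcb4, Abcg2 and Slco1b2 were higher, where 33.2% of all genes were, and Slc22a6 and Slc22a28 lower, where 19.4% were. In AAV-V HFD against AAV-V, 6 of 10 were called beside 43.0% of all genes, with Abcb4, Abcg2, Abcg5 and Slco1b2 higher (24.8% of all genes) and Slc22a6 and Slc22a28 lower (18.2%). The Abcg2 and Abcg5 calls rest on unmeasured AAV-V values, as given above, and the Abcb4 call was fitted to such values too. These shares lie near the background and carry no result about transporters as a class. Abcb4, Abcg2, Abcg5, Slc22a18 and Slco2b1 entered the test only through AAV-GP73 or AAV-V HFD arrays, because none of the 3 AAV-V arrays detected them. The 2 comparisons share their AAV-V arrays. An exact permutation test on a single gene could not go below p = 0.1 with 3 arrays against 3.

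The median over all genes tested was itself 0.60 in AAV-GP73 livers and 0.37 under the high-fat diet. Relative to it, Slco1b2 was at 1.04 and 1.45, Slc22a6 at -2.88 and -2.06, and Slc22a28 at -2.50 and -2.40. The scaling set the balance of all calls. In AAV-GP73, 63.1% of the calls were higher, against 90.3% with the 75th percentile of all probes, 98.1% with the spike-in spots and 16.2% with normexp. In AAV-V HFD the same shares were 57.7%, 94.7%, 98.1% and 8.03%. Quantile normalization, with 67.8% and 69.2%, called the same transporters.

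**Figure D4:**
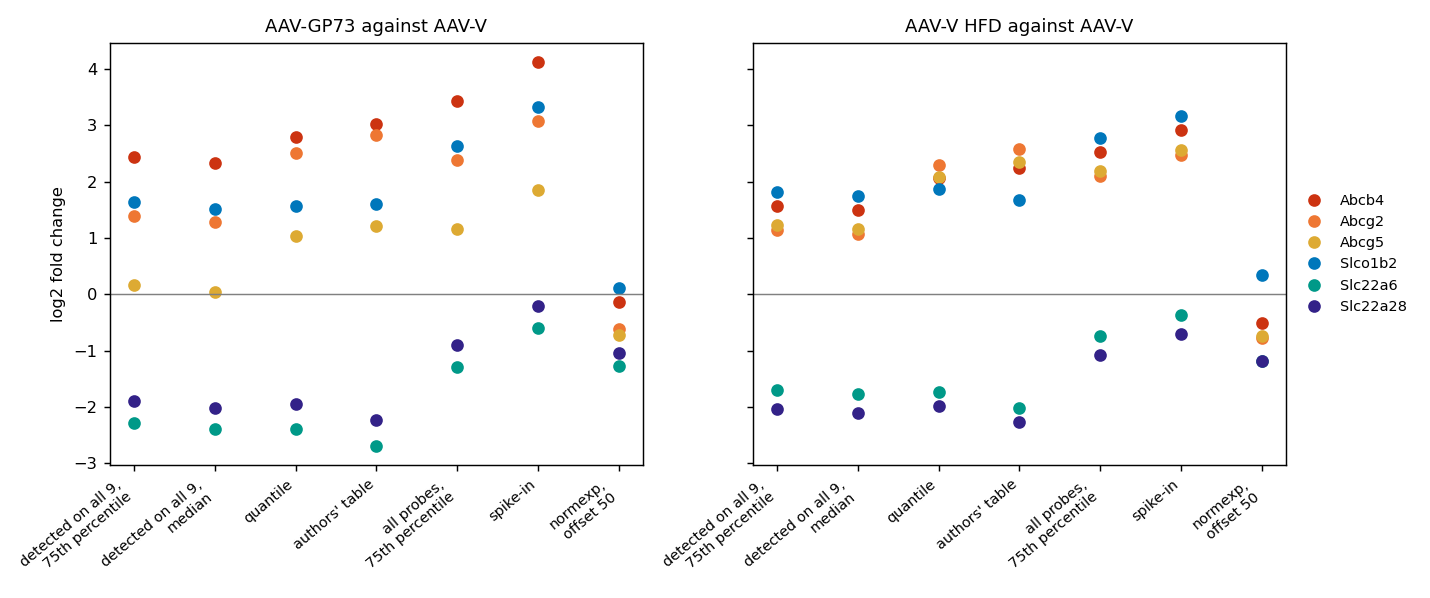
Log2 fold change of the 6 called transporter genes in both comparisons under the main scaling and 6 other ways of scaling or correcting the signal. Slc22a6 and Slc22a28 stay below 0 and Slco1b2 above 0 throughout, and the 3 Abc genes fall below 0 under normexp.

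Uptake and export were then set side by side as a description. The median log2 fold change was -0.27 over the 7 uptake genes tested and 1.40 over the 3 export genes in AAV-GP73, and -0.23 and 1.23 in AAV-V HFD, so uptake minus export was -1.67 and -1.46. All 3 export genes were undetected in AAV-V, so their values have no measured AAV-V side, whereas 4 of the 7 uptake genes were detected on all AAV-V arrays. Over all 82 genes with no filter the difference was 0.06 and -0.01.

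The core lists held the best known liver transporters. Of the sinusoidal uptake genes, Slco1b2 was called higher in both comparisons and Slco2b1 was not called. Slco1a1, a carrier known as abundant in male mouse liver, was well above background on 1 AAV-V HFD array, and Slco1a4, Slc22a5, the carnitine carrier, and Slc22a7 on none by their brightest probe. Of 7 canalicular export genes, Abcb4, Abcg2, Abcg5 and Abcg8 are given above, and Abcc2, which exports conjugated bilirubin, and the drug pumps Abcb1a and Abcb1b were detected on no array. Their AAV-V means of 1.67 to 1.90 and means of 0.08 to 0.83 elsewhere are those of undetected probes and have no order.

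Of 6 basolateral and lipid export genes none was tested. Abcc3, which returns conjugates to blood, was detected on 1 AAV-GP73 and 2 AAV-V HFD arrays and read 4.01, 3.56 and 0.70 in AAV-V HFD against 1.76 to 2.43 in AAV-V and 1.97 to 2.98 in AAV-GP73. AAV-V HFD replicate 3 fell below every other array. Abca1, which loads cholesterol on HDL, was detected on 1 AAV-V HFD array, and Abcc4, Abcc5, Abcc6 and Abcg1 on none. Of the mitochondrial pumps, Abcb6, a porphyrin transporter, was detected on 2 AAV-V HFD arrays at 3.86 and 2.78, and Abcb8 and Abcb10 on none. The 4 lysosomal and vesicular pumps Abca2, Abca3, Abca5 and Abcb9 were detected on no array. Abca7, Abca14, Abcc9, Slc22a23, Slc22a30 and Slco4a1 were each detected on 1 or 2 arrays. Abca7 and Abca14 were detected on AAV-V arrays only, 1 each.

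AAV-GP73 and AAV-V HFD were also compared directly, and limma called 0 of the 10 transporters, beside 2.52% of all genes. Abcg5 was the 1 transporter with an unadjusted p under 0.05, at -1.07 (95% interval -1.98 to -0.16, adjusted p = 0.22), and its 3 AAV-GP73 values lay below the 3 of AAV-V HFD. Slc22a6 was at -0.59 (-1.27 to 0.10) with no overlap between the groups, and Abcb4 at 0.87 (-0.03 to 1.76). For Slco1b2 the difference was -0.19 (-1.26 to 0.88), for Slc22a28 0.13 (-0.50 to 0.77) and for Abcg2 0.26 (-0.52 to 1.04). The intervals reached beyond 1 on the log2 scale for all 10 transporters except Slc22a18, Slc22a28 and Slco2a1. The slide of the AAV-V HFD arrays was not that of the other 6, so diet and slide cannot be told apart in either comparison with AAV-V HFD.

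Genes that work beside the transporters were measured from a related list of 16, of which 6 could be tested. In AAV-GP73 5 rose and 1 fell, and in AAV-V HFD 4 rose and 1 fell, whereas under normexp 1 rose and 1 fell in AAV-GP73 and 1 fell in AAV-V HFD. Over all genes tested, 52.6% and 43.0% were called, and Pdzk1, Rdx and Slc9a3r1 entered the test only through groups other than AAV-V. Slc10a1, the sodium-dependent bile acid carrier, was at 9.94, 9.59 and 9.51 in AAV-V, 10.73, 10.52 and 10.85 in AAV-GP73, and 9.84, 9.77 and 9.59 in AAV-V HFD. It was called in AAV-GP73 (log2 fold change 1.02, adjusted p = 0.00476) and not in AAV-V HFD (0.05, 95% interval -0.50 to 0.61). The direct difference of 0.97 between AAV-GP73 and AAV-V HFD had an adjusted p of 0.0704. These calls depended on the scaling. Slc10a1 was called in AAV-V HFD too with the 75th percentile of all probes (1.01) and the spike-in spots (1.39), was not called in AAV-GP73 with the median of the detected probes (0.90), and differed directly with the spike-in spots (1.31, adjusted p = 0.0371). Atp7b, a copper pump of another ATPase class, fell by 2.48 in AAV-GP73 and by 2.41 in AAV-V HFD, and its sign stayed negative under all 6 other scalings. The size depended on the scaling, and with the spike-in spots Atp7b was at -0.80, not called, and -1.08, called lower. Its levels of 6.26 to 7.22 in AAV-V stood above all others, which ran from 3.99 to 4.76.

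Scaffold proteins that hold carriers at the membrane were called higher in both comparisons, in fits against undetected AAV-V readings. The adjusted p test those fits and not the bounds given here, which are approximate. Under normexp none was called, with Pdzk1 at 0.17 and 0.13, Rdx at 0.10 and 0.31, and Slc9a3r1 turned to -0.50 and -0.29. With the offset used there, this does not decide whether genes undetected in AAV-V rose. Pdzk1 was undetected in AAV-V at 1.63 to 1.73 and read 4.56 to 6.02 in AAV-GP73 and 5.52 to 5.88 in AAV-V HFD, at least 3.11-fold and at least 3.44-fold higher (adjusted p = 3.85e-05 and 0.000144). Rdx, radixin, which ties canalicular proteins to actin, was at least 3.33-fold and at least 4.17-fold higher, with fitted means of 3.12, 5.59 and 5.92 (adjusted p = 0.000469 and 0.000559). Slc9a3r1, another PDZ scaffold, was at least 1.09-fold and 2.23-fold higher by group means (adjusted p = 0.0163 and 0.00113), with AAV-GP73 values of 3.49 to 4.42 that overlapped the 1.76 to 3.55 of AAV-V. The 3.49 lies below the AAV-V limits of 3.77 to 3.94, so the 1.09-fold does not hold for every AAV-GP73 array. Abcd3, a peroxisomal carrier of fatty acyl-CoA, was detected on 1 AAV-V array and rose by 2.26 and 1.28 on the log2 scale (adjusted p = 0.000292 and 0.0098), though it was at 0.23 and -0.32 under normexp.

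Of 12 regulators of transporter genes, 8 were tested, and 5 rose and 1 fell in each comparison, whereas under normexp 1 rose and 1 fell in AAV-GP73 and none was called in AAV-V HFD. Of all genes tested, 33.2% rose and 19.4% fell in AAV-GP73, and 24.8% and 18.2% under the diet, and Nr1h3, Nr1h4 and Ppara entered only through groups other than AAV-V. Hnf4a was at 6.16, 5.25 and 5.35 in AAV-V, 7.78, 7.91 and 8.45 in AAV-GP73, and 6.71, 6.96 and 7.29 in AAV-V HFD, with no overlap between AAV-V and the others. Its log2 fold changes were 2.46 (adjusted p = 0.000143) and 1.40 (adjusted p = 0.00445). Rxra, the partner of most of these receptors, was detected on all arrays and rose by 1.62 and 1.42 (adjusted p = 0.000387 and 0.0015). Under normexp Rxra was at 0.67 and 0.49, not called, and Hnf4a at 1.23, still called, and 0.38, not called. Nr1h4, the bile acid receptor FXR, and Nr1h3, the oxysterol receptor LXR alpha, were undetected in AAV-V, as was Ppara, the fatty acid receptor. Their bounds are approximate, and the adjusted p test the fits to undetected readings and not the bounds. Nr1h4 was at least 2.01-fold and 1.88-fold higher in AAV-GP73 and AAV-V HFD (fitted means 3.32, 4.86 and 4.77, adjusted p = 0.00105 and 0.00238) and Nr1h3 at least 2.01-fold and 2.12-fold (means 3.34, 4.86 and 4.94, adjusted p = 0.000413 and 0.000687). Ppara was at least 2.16-fold and 1.81-fold higher (means 3.17, 5.05 and 4.79, adjusted p = 0.0085 and 0.0212). Its AAV-V HFD values overlapped those of AAV-V, with replicate 3 at 3.60 below AAV-V replicate 2 at 4.10. The 1.81-fold is a bound of the group mean and does not hold for that AAV-V HFD array. Under normexp the signs of Nr1h4, Nr1h3 and Ppara all turned, with values from -0.40 to -0.23 and no call. Given the size of the offset, these turns do not decide whether the genes, undetected in AAV-V, rose. Nr1h2, LXR beta, fell by 1.38 and 1.31 (adjusted p = 0.00264 and 0.00493) but turned to 0.31 and 0.03 with the spike-in spots. The xenobiotic receptor Nr1i3 (-0.93 and -0.89) was not called, and it was above 0 with the spike-in spots or the 75th percentile of all probes. Whether any of these goes with the transporter values was not tested.

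**Figure D5:**
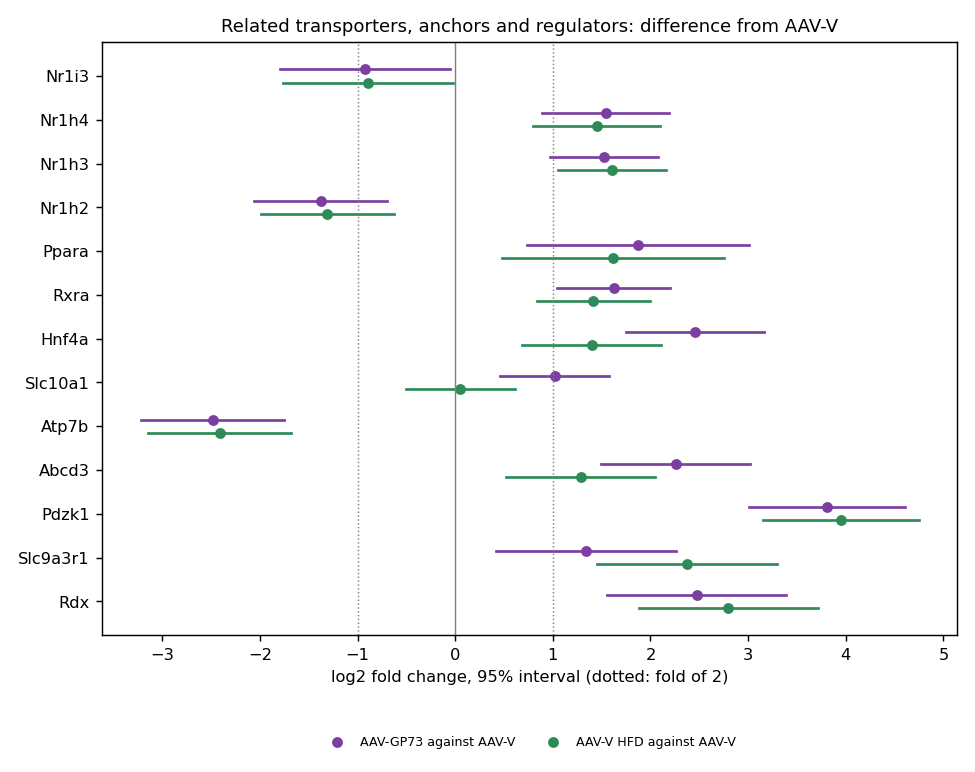
Log2 fold change of 7 regulators and 6 related transporters and anchors that were tested (purple for AAV-GP73, green for AAV-V HFD) against AAV-V, with 95% intervals and dotted lines at a fold of 2. Atp7b lies at -2.48 and -2.41, and the points of Pdzk1, Rdx, Slc9a3r1, Nr1h3, Nr1h4 and Ppara are fitted against undetected AAV-V values, with Slc9a3r1, Nr1h3, Nr1h4 and Ppara below 0 under normexp.

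Promoter sequence from RefSeq on GRCm38.p6, which matched all 10 tested transporters, is shown for Slco1b2, which rose, for Slc22a6 and Slc22a28, which fell, and for the stretch between the divergent Abcg5 and Abcg8 genes. For the first 3 it is the 250 bases before the start, on the gene's strand. Capitals mark AGGTCA, a nuclear receptor core, and TATAAA, on either strand, with no overlap between them in these stretches.
Slco1b2, chr6:141629268-141629517: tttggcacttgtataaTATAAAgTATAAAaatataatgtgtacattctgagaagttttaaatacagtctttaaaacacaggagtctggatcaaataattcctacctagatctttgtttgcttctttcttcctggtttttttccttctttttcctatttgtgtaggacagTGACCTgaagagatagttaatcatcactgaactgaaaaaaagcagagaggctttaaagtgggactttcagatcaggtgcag
Slc22a6, chr19:8617746-8617995: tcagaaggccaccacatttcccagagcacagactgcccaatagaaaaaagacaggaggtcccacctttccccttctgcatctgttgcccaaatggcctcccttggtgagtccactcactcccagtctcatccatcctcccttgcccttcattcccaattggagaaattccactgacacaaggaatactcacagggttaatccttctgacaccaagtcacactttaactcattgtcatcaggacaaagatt
Slc22a28, chr19:8131983-8132232: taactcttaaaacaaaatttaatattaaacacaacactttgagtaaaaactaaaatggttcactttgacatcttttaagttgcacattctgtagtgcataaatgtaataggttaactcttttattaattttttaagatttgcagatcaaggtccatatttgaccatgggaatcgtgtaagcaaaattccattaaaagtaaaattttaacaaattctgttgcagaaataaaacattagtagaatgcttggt
Abcg5 and Abcg8, chr17:84683012-84683120: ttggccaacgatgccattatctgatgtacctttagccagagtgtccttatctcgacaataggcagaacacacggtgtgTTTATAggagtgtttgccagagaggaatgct
Of all 32851 promoters in the table, 14.0% held AGGTCA and 12.4% TATAAA. Of the 10 tested transporters, 2 held AGGTCA and 3 TATAAA in a listed promoter. Counted as promoters, 3 of their 14 held AGGTCA and 3 held TATAAA. Slco1b2 held both motifs, TATAAA at 2 places. The Slc22a6 and Slc22a28 promoters held neither, nor did that of Abcb4, and that of Slc22a28 had 26.8% G and C. Abcg5, read to the left, and Abcg8, read to the right, start 109 bases apart around 1 TATAAA on the strand of Abcg5. A match of letters is a description and not a binding site.

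Marker lists of other cells were summed as a description, with no test. The erythroid and the stellate and fibroblast sums of AAV-GP73 lay above those of AAV-V, and the endothelial sums of AAV-V HFD lay below. The other ranges of these lists and of the macrophage list overlapped AAV-V. The sums include undetected probes, and undetected transporters had medians of 1.76 to 1.88 on AAV-V arrays and 0.08 to 0.83 on AAV-V HFD arrays. Endothelial markers detected numbered 0, 0 and 1 on the AAV-V arrays and 1, 2 and 0 on the AAV-V HFD arrays. No loss of endothelial signal can be read from the lower sums. The erythroid list of 7 was well above background on all 3 arrays for 2 genes in AAV-V, 4 genes in AAV-GP73 and 2 genes in AAV-V HFD, and its summed log2 level was 8.58 to 9.86, 11.7 to 14.0 and 9.27 to 10.1. The sum of 7 stellate and fibroblast markers was 6.43 to 6.62, 7.26 to 7.54 and 6.24 to 6.98, and that of 8 macrophage and Kupffer cell markers 6.71 to 6.99, 6.78 to 7.39 and 6.90 to 7.75. Of 6 endothelial markers 1 was detected on all AAV-GP73 arrays, and none on all arrays of the other groups, with sums of 4.74 to 5.15, 4.82 to 5.37 and 3.52 to 4.69. Of 6 bile duct cell markers and 6 lymphocyte markers none was detected on all arrays of any group, with 3 and 5 of them on no array at all. The part of these cells in the transporter values was not tested. Golm1, which encodes GP73, could not be used to check the labels.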

How the data were processed

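Total RNA of 9 liver samples was labelled with Cy3 and hybridised to one-colour Agilent arrays, and samples were grouped by their labels. The deposited intensity values are the authors' processed signals of Feature Extraction 12.0.3.1 per the file headers, background-subtracted with no scaling between arrays, although the submitters' processing notes name version 10.7. The deposited detection flags (other) mark spots well above background. The log2 values deposited by the authors, 56605 probes by 9 arrays with column medians of 0.799 to 0.801, have a normalization not given in the sources used here and served as an alternative. Probe positions and gene names are those of the files, on mm9.

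Control spots and the 98 to 151 flagged spots per array were left out, and 0 spots were saturated. Log2 signals were shifted to the 75th percentile of the 2667 probes well above background on all 9 arrays, since 10.2% to 18.4% of the spots were detected. Each gene was its brightest probe. All 3 groups were fitted together in R 4.3.3 with limma 3.58.1 (lmFit, eBayes), and p-values were adjusted by the Benjamini-Hochberg method over 5763 genes. Every adjusted p is from this test, which was checked on simulated arrays of independent normal values. The simulated arrays had no detection limit and no difference in brightness, so the check does not cover genes undetected in AAV-V. Genes were called at a fold of 2 and adjusted p under 0.05. Named were the transporters called, tested or on the core lists, and the related lists. A few genes of these lists are not reported here. The members and lists were chosen with earlier results of these data known. Precision is limited by the number of arrays, and p-values measure the spread between arrays only. Replicate numbers did not pair the samples, with correlations of deviations from -0.12 to 0.17. Alternatives were other scalings, background correction, filters, probe rules, tests and leaving out arrays. Figures were drawn with matplotlib 3.10.9.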

Additional observations from a re-analysis of the deposited data

How the results depend on the processing

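The number of transporters called, 5 for AAV-GP73 and 6 under HFD, each against AAV-V, was 7 and 6 with the 75th percentile of all probes (71.5% and 60.0% of all genes), 7 and 5 with the spike-in spots (77.6% and 66.8%), 2 and 2 under normexp (14.7% and 15.6%), 1 and 1 with genes well above background on all 9 arrays (3 transporters tested), and 64 and 58 of 82 with no filter (79.9% and 75.4% of all genes), where probes without signal entered. It was 3 in AAV-GP73 with the mean of all probes, and 3 (unadjusted) or 2 (adjusted) in AAV-V HFD by the methods' t-test, where Slco1b2, Abcg2, Abcg5 and, once adjusted, Abcb4 were lost. With 1 array left out it was 4 to 5 and 5 to 6. The replicate block, with numbers that do not pair the samples, left 5 and 6. AAV-GP73 against AAV-V HFD gave 0 under every alternative run. Uptake minus export, -1.67 and -1.46, was -2.60 and -2.26 under quantile normalization, -0.14 and -0.16 under normexp, -2.90 and -2.54 in the authors' table, 0.0637 and -0.0136 with no filter, -1.29 and -2.09 with the mean of all probes, -0.43 and -0.41 over the core lists, and ran from -1.68 to -1.22 and from -1.96 to -1.25 with 1 array left out. The causes were not tested.

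Signs turned as follows, as log2 fold changes. With the 75th percentile of all probes, Slc22a12 was 0.51 and 0.73 and Slc22a18 0.73 and 0.48 in AAV-GP73 and AAV-V HFD, and Slco2b1 0.78 in AAV-V HFD. With spike-in spots, Slc22a12 was 1.20 and 1.11, Slc22a18 1.42 and 0.86, and Slco2b1 1.16 in AAV-V HFD. Under normexp, Abcb4 was -0.13 and -0.51, Abcg2 -0.61 and -0.77, Abcg5 -0.72 and -0.74, Slco2a1 -0.0745 and -0.12, and Slco2b1 -0.75 in AAV-GP73. The normexp offset is large against AAV-V signal, so the turns of the Abc genes, undetected in AAV-V, do not decide whether they rose. Slco2b1 in AAV-V HFD was 0.42 under quantile normalization and 0.49 in the authors' table, and Slco2a1 was -0.11 there. With the mean of all probes in AAV-GP73, Slco1b2 was -0.0341, Slco2a1 -1.01 and Slco2b1 -0.94, and in AAV-V HFD Slco2a1 was -0.93. These means take in probes of the same genes that were detected on no array. With 1 array left out, Abcg5 in AAV-GP73 ran from -0.16 to 0.57, Slc22a12 from -0.86 to 0.13 and in AAV-V HFD from -0.60 to 0.39, and Slco2b1 in AAV-V HFD from -0.74 to 0.31. Slc22a6 and Slc22a28 kept their sign under all alternatives run.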

Other observations

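Of the 166 probes for the 82 transporters, 84 were not the brightest of their gene, and 6 of these were well above background on any array. For 2 genes the unused probe was detected while the brightest one was not. An Abca8a probe at chr11:109886935-109886984 read 5.27 on AAV-V HFD replicate 2 and between -0.11 and 1.97 on the other 8 arrays. A Slc22a5 probe at chr11:53679058-53679117 read 4.51 on AAV-V replicate 2 and between -0.01 and 1.95 on the others. Abca14 likewise read 4.54 on AAV-V replicate 2 and 1.77 or less elsewhere, and Abcc9 4.37 on AAV-V HFD replicate 2 and 2.74 or less elsewhere. Each of these rests on 1 array and goes into no comparison. The chosen probes of the 10 tested transporters had a median of 45.0% G and C, against 41.7% for the 72 not tested and 43.3% for all gene names.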
